A study of Rattus norvegicus with 4 samples.

Results

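Genes of the extracellular matrix, its proteases and their inhibitors, and the growth factor Pdgfa were measured in rat liver 12 h after ligation of the common bile duct. They were taken by gene symbol from the annotation of the array platform: the symbols Pdgfa, Timp1, Col1a1 and Lamb2, and any symbol that starts with Timp, Mmp, Lama, Lamb, Lamc or with Col and a digit. This gave 15 of the 1936 probes, which stand for 12 of the 958 named genes tested: 4 collagens (Col1a1, Col2a1, Col5a2, Col6a1), 4 matrix metalloproteinases (Mmp2, Mmp12, Mmp13, Mmp14), the inhibitors Timp1 and Timp2, the laminin chain Lamb2, and Pdgfa.

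Each of the 4 two-colour cDNA arrays set liver RNA of male Sprague-Dawley rats with common bile duct ligation against liver RNA of rats with a sham operation, in which the duct was exposed but not tied. The rats weighed 250 to 300 g, and the right lateral lobe was taken 12 h after either operation. Each group's RNA was a mixture from 3 rats, made before labelling. On arrays 1 and 3 the ligation mixture was labelled with Cy5, and with Cy3 on arrays 2 and 4. The 4 arrays may be repeat hybridisations of a single pair of pools, so a p-value here measures the spread between arrays and not the spread between rats. The files hold 1 log ratio per probe and array and no intensity. The labelled tissue could therefore not be checked against absolute levels of its markers, although 7 of 14 listed hepatocyte markers had a probe. In whole-liver RNA, a change in the number of cells of a type and a change in RNA per cell cannot be told apart.

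The liver matrix is made mainly by stellate cells and portal fibroblasts, which turn into collagen-producing myofibroblasts when bile flow is blocked for long. Platelet-derived growth factor is a mitogen of these cells and acts through the receptors Pdgfra and Pdgfrb. Matrix metalloproteinases cut matrix proteins, and tissue inhibitors of metalloproteinases (Timps) bind their active site. Timp1 is a classical early-response gene in injured liver.

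Upstream sequence was available in the RefSeq promoter table (build GRCr8) for 7 of the 12 genes: Pdgfa, Timp1, Timp2, Col5a2, Col6a1, Mmp12 and Mmp13. The 250 bases before the annotated start are shown, 5′ to 3′ on the gene's strand, for the called genes among them, because Pdgfa and Timp1 were higher after ligation and Col6a1 lower. Capitals mark 3 motifs, searched on both strands and not overlapping here: TGANTCA, the consensus of the stress- and growth-responsive factor AP-1, TGAGTAA, an AP-1 variant known from Timp1 promoters, and GGGCGG, the core of Sp1 sites. They were chosen after the values were known.
Pdgfa (chr12:20759116-20759365, plus strand): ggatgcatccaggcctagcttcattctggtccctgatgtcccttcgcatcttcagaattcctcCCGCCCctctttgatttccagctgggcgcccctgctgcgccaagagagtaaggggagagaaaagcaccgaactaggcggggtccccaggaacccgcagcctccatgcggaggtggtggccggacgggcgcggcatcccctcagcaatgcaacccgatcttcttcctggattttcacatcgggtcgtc
Timp1 (chrX:3771123-3771372, minus strand): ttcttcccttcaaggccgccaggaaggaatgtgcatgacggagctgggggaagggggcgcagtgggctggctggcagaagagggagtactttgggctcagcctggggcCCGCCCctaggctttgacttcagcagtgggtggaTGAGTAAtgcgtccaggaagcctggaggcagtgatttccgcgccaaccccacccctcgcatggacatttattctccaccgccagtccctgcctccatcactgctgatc
Col6a1 (chr20:11905440-11905689, plus strand): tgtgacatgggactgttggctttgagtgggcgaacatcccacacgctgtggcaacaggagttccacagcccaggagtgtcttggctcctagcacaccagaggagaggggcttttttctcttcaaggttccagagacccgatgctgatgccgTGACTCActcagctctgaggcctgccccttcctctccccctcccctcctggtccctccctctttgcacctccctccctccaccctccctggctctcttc

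For comparison, 30 bases around the match are shown for both metalloproteinases that have one, neither of which passed the test.
Mmp12 (chr8:12866553-12866582, plus strand): tgacatcaacagTGAGTCAtattgaggatt
Mmp13 (chr8:12782751-12782780, plus strand): caccccaagtggTGACTCAtcactattgct

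The AP-1 consensus thus stood upstream of 1 called gene, Col6a1, starting 99 bases before the start, and of Mmp12 and Mmp13, at 87 and 66 bases before it. Of all 33469 windows of this length in the table, 6.34% hold it. The variant TGAGTAA began 108 bases before the start of Timp1 and is present in 2.38% of all windows. The Sp1 core, read as CCGCCC on the gene's strand, lay upstream of Pdgfa, Timp1 and Timp2, and 30.5% of all windows hold it. A match is a property of these letters and does not show a site in use.

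Across these genes, Pdgfa, Timp1 and Lamb2 were called higher after ligation and 3 of 4 collagens lower, all by small amounts. None of the 4 metalloproteinases passed the test. The sign of Lamb2 followed the dye, and its call was lost without array 1, where its value was 0.13. All values are log2 ratios of ligation over sham, centred on the median of their array. The direction is likely but not stated in the sources, and base 2 is assumed. Calls are limma's at a Benjamini-Hochberg adjusted p under 0.05, from a fit with a ligation term and a dye term over 1174 features. By this rule 6 of 12 genes were called, against 28.6% of all features. In the higher direction there were 3 of 12 genes, against 12% of all features, and in the lower direction 3 of 12, against 16.6%. No member was called lower by limma without array 2 or without array 4, against 151 and 157 of the 1174 features. In these fits 4 and 3 members were called higher, against 112 and 96 features. At an unadjusted limma p under 0.05, 3 and 0 members were lower, a count not made over all features. The members' median was -0.056, beside -0.013 over all features. With 12 genes, these shares are a description of the set.

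**Figure D1:**
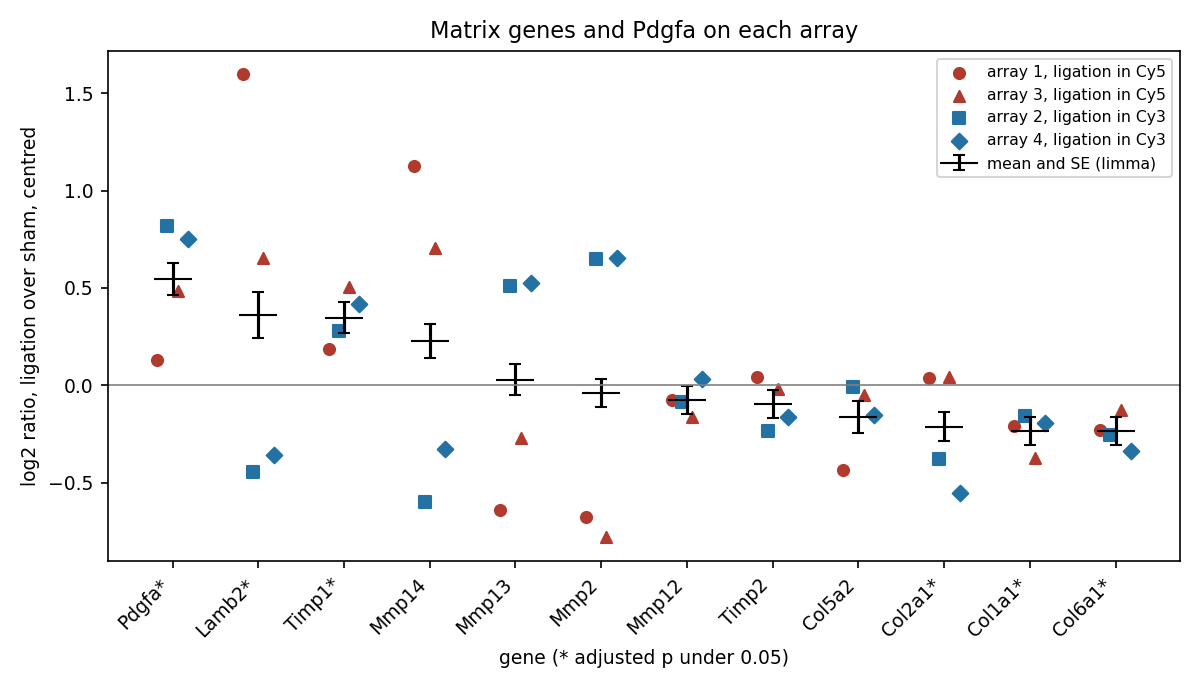
Centred log2 ratio of ligation over sham (vertical axis) for each of the 12 genes (horizontal axis, in order of the mean). Points are single arrays, red where the ligation RNA carried Cy5 and blue where it carried Cy3, and bars are the limma mean ± SE over 4 arrays. Pdgfa and Timp1 lie above 0 on all 4 arrays, whereas Lamb2, Mmp14, Mmp13 and Mmp2 split by dye. Col2a1 also changes sign with the dye, staying near 0 with ligation in Cy5.

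Pdgfa encodes the A chain of platelet-derived growth factor. Its probe gave 0.13, 0.82, 0.48 and 0.75 on arrays 1 to 4. All 4 arrays were above 0, with array 1 the lowest, and the arrays with ligation in Cy3 were higher than those with ligation in Cy5. The mean was 0.55 ± 0.08 (SE, 4 arrays), or 1.46-fold higher after ligation (limma adjusted p = 0.000191). The 95% interval of the log2 value ran from 0.37 to 0.72. Pdgfa ranked 25 from the top among the 1174 features.

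The call of Pdgfa was kept when any single array was left out, with values from 0.46 to 0.64 and adjusted p up to 0.00503. It was lost without centring (0.16, adjusted p = 0.19), which lowers every value by 0.38. If the deposited values are read as Cy5 over Cy3, Pdgfa would be lower, at -0.24 (adjusted p = 0.0145).

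The receptor Pdgfra, through which the A chain signals, did not pass the test. Its mean of 2 probes was -0.29, 0.33, -0.29 and 0.25 on arrays 1 to 4. The sign followed the dye, and the mean was -0.0012 ± 0.07 (SE, 4 arrays, limma adjusted p = 0.99), with a 95% interval from -0.16 to 0.15. Within each array Pdgfa exceeded Pdgfra, by 0.42, 0.49, 0.78 and 0.51, a within-array difference that does not depend on centring.

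Timp1, the inducible inhibitor of metalloproteinases, was at 0.19, 0.28, 0.51 and 0.42 on arrays 1 to 4. All 4 arrays were above 0, and both dye orientations gave the same mean, 0.35 with ligation in Cy5 and 0.35 with ligation in Cy3. The fit gave 0.35 ± 0.08 (SE, 4 arrays), or 1.27-fold higher (limma adjusted p = 0.00473), with a 95% interval from 0.18 to 0.52. Its dye term was -0.00049, smaller in size than that of all but 0.0852% of features. Leaving out single arrays gave 0.27 to 0.43 with adjusted p up to 0.0396, so no call was lost. Without centring Timp1 was at -0.034 (adjusted p = 0.771), and read as Cy5 over Cy3 it was at -0.00049 (adjusted p = 0.996).

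Timp2, a largely constitutive inhibitor, was at 0.041, -0.23, -0.019 and -0.16 on arrays 1 to 4. Values lay on both sides of 0, and the mean of -0.094 ± 0.07 (SE, 4 arrays) did not pass (limma adjusted p = 0.409). On each array Timp1 was above Timp2, by 0.15, 0.51, 0.52 and 0.58. The mean difference between the inhibitors was 0.44 ± 0.20 (SD, 4 arrays). It is described only, without a test. Timp1 was above Mmp12 on 4 of 4 arrays, and above Mmp2, Mmp13 and Mmp14 on 2 of 4 arrays each. The Mmp12 value is the mean of 2 probes that followed the dye in opposite directions. Mmp2, Mmp13 and Mmp14 had 1 probe each, so these counts are not alike.

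Pdgfa and Timp1 thus shared a positive sign under both dye orientations. This is a description, because the genes were chosen with earlier results of these data known. Of the 12 genes, 5 had the same sign on all 4 arrays (Pdgfa, Timp1, Col1a1, Col5a2 and Col6a1), against 12.9% of all features. The first 2 were positive, and all 3 collagens negative. For Col1a1 the single sign is that of the mean of 2 probes, and probe 1183 changed sign with the dye.

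Lamb2 encodes the laminin beta-2 chain, a component of basement membranes, and was the only laminin chain among the named probes. It gave 1.60, -0.45, 0.65 and -0.36 on arrays 1 to 4. The sign followed the dye, positive on both arrays with ligation in Cy5 and negative on both with ligation in Cy3. The mean was 0.36 ± 0.12 (SE, 4 arrays), or 1.29-fold higher (limma adjusted p = 0.0381), with a 95% interval from 0.10 to 0.62. This is close to the mean of Timp1, but its standard error exceeded that of 99.1% of features and its dye term of 0.76 that of 91.1%.

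The call of Lamb2 depended on array 1 and on the processing. Arrays 1 and 3, which share a dye orientation, differed by 0.95 at this probe, more than at 99.8% of the 1648 probes tested, whose median gap was 0.20. Arrays 2 and 4 differed by 0.089. Without array 1 the value was 0.13 (adjusted p = 0.265). Centring within the 16 print blocks of the slide gave 0.25 (adjusted p = 0.165), quantile normalization 0.26 (adjusted p = 0.0515), and a robust prior left the value at 0.36 with adjusted p = 0.0594. Lamb2 was at 0.76 (adjusted p = 7.06e-05) if read as Cy5 over Cy3. The block that holds the probe had a median of 0.22 on array 1 and 0.033 on array 3.

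**Figure D2:**
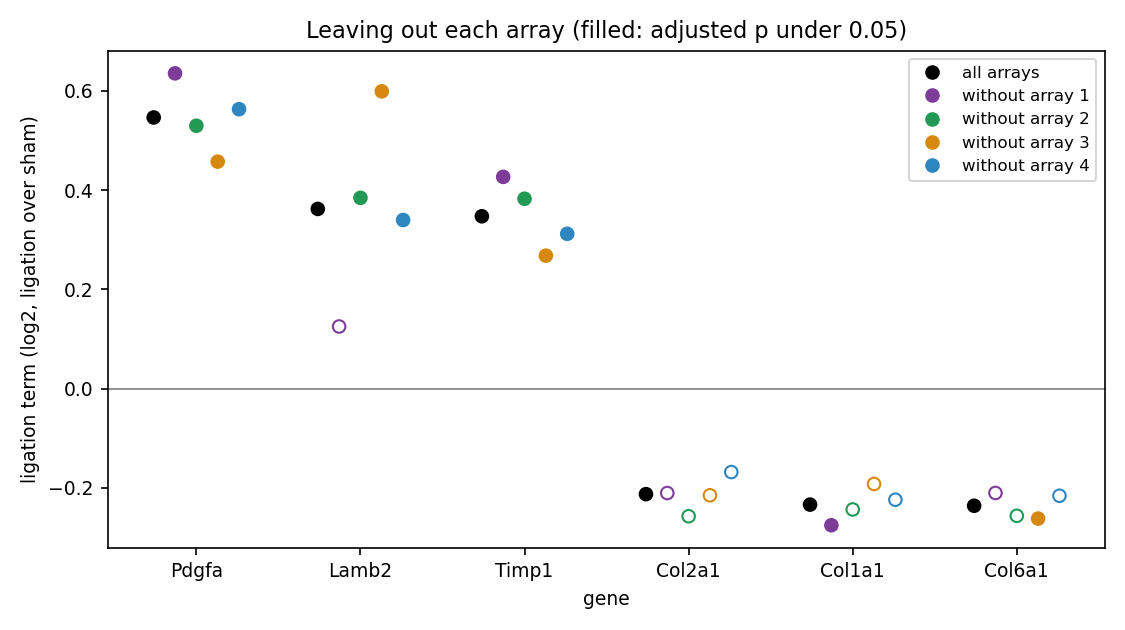
Ligation term (log2, ligation over sham, vertical axis) of the 6 called genes with all arrays (black) and without each array in turn (colours). Filled symbols have a limma adjusted p under 0.05 and open symbols do not. Pdgfa and Timp1 stay filled throughout, Lamb2 is open at 0.13 without array 1, and each collagen is open without at least 3 of the arrays in turn.

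The collagens lay below 0 together. Col1a1, the main chain of the fibrillar collagen that fills fibrotic liver, Col6a1, a chain of the microfibrillar collagen VI, and Col2a1, the collagen of cartilage, passed the test in the lower direction. Col5a2, a chain of a minor fibrillar collagen, did not pass. Their median was -0.22, beside -0.013 over all features. The means ranged only from -0.24 for Col6a1 to -0.16 for Col5a2.

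Col1a1 gave -0.21, -0.16, -0.37 and -0.20 on arrays 1 to 4 as the mean of its 2 probes. All 4 arrays were below 0, and the mean was -0.23 ± 0.07 (SE, 4 arrays), or 1.18-fold lower (limma adjusted p = 0.0296). Read as Cy5 over Cy3 it was at -0.057 (adjusted p = 0.483). The probes themselves disagreed. Probe 1306 was at -0.081, -0.72, -0.18 and -0.68, below 0 on all arrays, with a mean of -0.42 ± 0.08 (SE, 4 arrays, adjusted p = 0.000992 at probe level). Probe 1183 was at -0.33, 0.40, -0.57 and 0.29, negative with ligation in Cy5 and positive with ligation in Cy3, with a mean of -0.051 ± 0.08 (adjusted p = 0.76).

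The gap of 0.37 between the Col1a1 probes exceeded the gap in 86.2% of the 261 genes with 2 probes, for which the median was 0.098. Their dye terms also had opposite signs, 0.28 for probe 1306 and -0.40 for probe 1183, so that the averaged gene showed little of either. At gene level Col1a1 kept its call without array 1 (-0.28, adjusted p = 0.0302) and did not pass at -0.24 without array 2 (adjusted p = 0.12), at -0.19 without array 3 (adjusted p = 0.102) and at -0.22 without array 4 (adjusted p = 0.177). Probe 1306 alone kept its call without any single array (-0.44 to -0.39, adjusted p up to 0.00642).

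Col6a1 gave -0.23, -0.25, -0.13 and -0.34 on arrays 1 to 4. All were below 0 with a small spread, and the mean was -0.24 ± 0.07 (SE, 4 arrays), or 1.18-fold lower (limma adjusted p = 0.0267). Both of its probes were below 0 on every array. Probe 206 was at -0.28, -0.12, -0.055 and -0.20, with a mean of -0.16 ± 0.08 (adjusted p = 0.168 at probe level). Probe 1903 was at -0.17, -0.39, -0.20 and -0.47, with a mean of -0.31 ± 0.08 (adjusted p = 0.00808). The gene did not pass at -0.21 without array 1 (adjusted p = 0.0767), at -0.26 without array 2 (adjusted p = 0.094) and at -0.22 without array 4 (adjusted p = 0.2). Read as Cy5 over Cy3 it was at 0.059 (adjusted p = 0.464).

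Col2a1 gave 0.036, -0.38, 0.045 and -0.55 on arrays 1 to 4. It was near 0 with ligation in Cy5 and below 0 with ligation in Cy3, and the mean of -0.21 ± 0.07 (SE, 4 arrays) passed narrowly (limma adjusted p = 0.0469). The call was lost without any 1 of the arrays (-0.26 to -0.17, adjusted p from 0.0912 to 0.368) and at probe level (adjusted p = 0.0648). It was also lost with quantile normalization (-0.20, adjusted p = 0.058) and with centring within print blocks (-0.20, adjusted p = 0.0605), and read as Cy5 over Cy3 the gene was at 0.25 (adjusted p = 0.00671).

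Col5a2 gave -0.44, -0.010, -0.050 and -0.15, with array 1 the lowest. Its mean was -0.16 ± 0.08 (SE, 4 arrays, limma adjusted p = 0.179), with a 95% interval from -0.34 to 0.017. The print block of its probe had a median of -0.36 on array 1. Without array 3 the gene passed (-0.26, adjusted p = 0.0456).

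**Figure D3:**
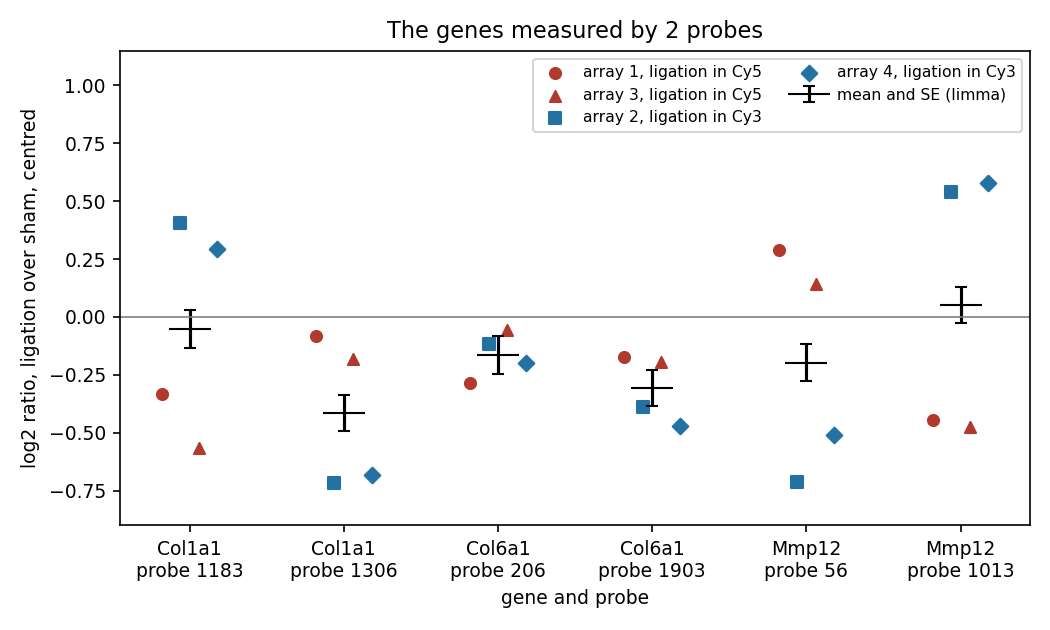
Centred log2 ratio of ligation over sham (vertical axis) for the 6 probes of Col1a1, Col6a1 and Mmp12 (horizontal axis). Points are single arrays, coloured by the dye of the ligation RNA, and bars are the limma mean ± SE over 4 arrays. The Col6a1 probes are below 0 on every array, whereas the Col1a1 and Mmp12 pairs split by dye in opposite directions.

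None of the 4 metalloproteinases was called by limma, against 28.6% of all features, and 1, Mmp14, had an unadjusted p under 0.05. At least 28.6% of all features passed the unadjusted threshold, because an adjusted p is never below the unadjusted one. If the values are read as Cy5 over Cy3, 3 of the 4 would be called, against 78.8% of all features. These were Mmp14, higher, and Mmp2 and Mmp13, lower. Mmp14, a membrane-bound protease that activates the precursor of Mmp2, had the highest mean. It gave 1.13, -0.60, 0.71 and -0.32 on arrays 1 to 4, positive with ligation in Cy5 and negative with ligation in Cy3. The mean was 0.23 ± 0.09 (SE, 4 arrays, limma adjusted p = 0.0714), with a 95% interval from 0.038 to 0.42. It passed without array 2 (0.30, adjusted p = 0.0448), without array 3 (0.33, adjusted p = 0.0308) and with centring within print blocks (0.24, adjusted p = 0.0398). Read as Cy5 over Cy3 it was at 0.69 (adjusted p = 1.4e-05).

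Mmp2, the gelatinase that cleaves basement membrane collagen, gave -0.68, 0.65, -0.78 and 0.65. This is the reverse of the dye pattern of Mmp14, and the mean was -0.039 ± 0.07 (SE, 4 arrays, limma adjusted p = 0.782), with a 95% interval from -0.19 to 0.12. Mmp13, the interstitial collagenase of rodents, gave -0.64, 0.51, -0.27 and 0.52. It had the dye pattern of Mmp2, and its mean was 0.030 ± 0.08 (adjusted p = 0.863), with an interval from -0.14 to 0.20. Read as Cy5 over Cy3, Mmp2 was at -0.69 (adjusted p = 5.76e-06) and Mmp13 at -0.49 (adjusted p = 0.00011).

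Mmp12, a macrophage elastase, had 2 probes. Probe 56 was at 0.29, -0.71, 0.14 and -0.51, with a mean of -0.20 ± 0.08 (SE, 4 arrays, adjusted p = 0.0945 at probe level). Probe 1013 was at -0.44, 0.54, -0.47 and 0.58, with a mean of 0.050 ± 0.08 (adjusted p = 0.753). The probes followed the dye in opposite directions, and the gap between their dye terms, 0.92, exceeded that of 85.8% of genes with 2 probes. Averaged, the gene gave -0.077, -0.086, -0.16 and 0.033, with a mean of -0.074 ± 0.07 (limma adjusted p = 0.544).

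The 15 probes were also fitted singly. At probe level 5 of 15 were called, 3 higher and 2 lower, against 27.9% of the 1648 probes tested, 11.8% higher and 16.1% lower. These were Pdgfa, Timp1, Lamb2, Col1a1 probe 1306 and Col6a1 probe 1903. The same sign on all 4 arrays was seen in 6 of 15 probes, against 12.1% of all probes.

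The dye term separated the members. Over all features its median size was 0.42, against 0.11 for the ligation term, and it exceeded the ligation term in 78.2% of features. A test of the dye term, which is the ligation effect under the Cy5 over Cy3 reading, called 6 of 12 genes (Pdgfa, Lamb2, Mmp14, Mmp13, Mmp2 and Col2a1), against 78.8% of all features. The dye term was larger in size than the ligation term in 6 genes, namely Lamb2, Mmp14, Mmp13, Mmp2, Col2a1 and Timp2. The ligation term was larger in the other 6: Pdgfa, Timp1, Mmp12 and the 3 other collagens. At probe level the dye term was the larger for both Mmp12 probes and for Col1a1 probe 1183, and the ligation term for Col1a1 probe 1306.

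Calls were distributed unevenly along the dye term. With a limit chosen after seeing the data, 352 probes had a dye term under -0.4, and 2 of them, or 0.568%, were called. Of 674 probes between -0.4 and 0.4, 20.8% were called, and of 622 probes over 0.4, 51% were. The probes of Mmp2 and Mmp13 and Mmp12 probe 1013 were in the first set. Lamb2, Mmp14 and Mmp12 probe 56 were in the last, and the other 9 probes, with 4 of the 5 calls, lay between. The absence of a call for Mmp2 and Mmp13 is therefore an observation in a range of the dye term where calls were rare. Signal over background is unknown for these probes, and its part in this was not tested.

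**Figure D4:**
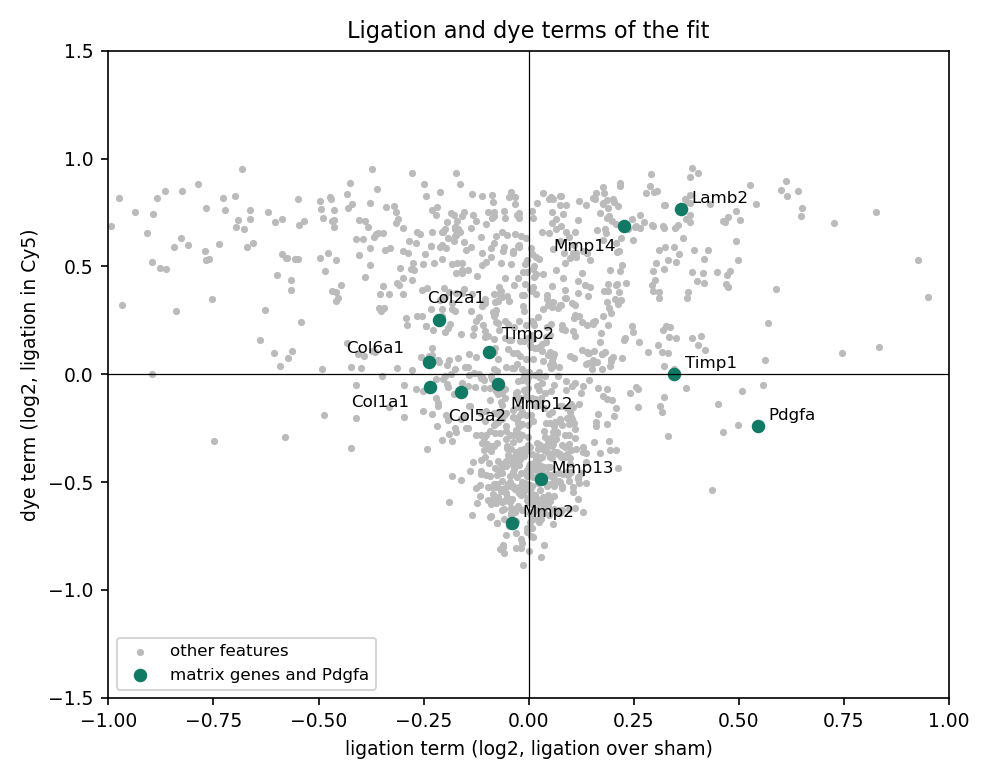
Dye term (log2, positive where the ligation RNA gave a higher ratio in Cy5, vertical axis) against ligation term (log2, ligation over sham, horizontal axis) for 1149 of 1174 features, the other 25 lying outside the axes. Green points are the 12 genes and grey points the other features. Features narrow around a ligation term of 0 as the dye term falls, and Mmp2 and Mmp13 lie in that narrow range.

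Among genes nearest in pattern, by Euclidean distance over the 4 centred array values among 957 other named genes, Pdgfa was closest to the fatty acid-binding protein Fabp4 (distance 0.17), the glucocorticoid-activating enzyme Hsd11b1 (0.25) and cyclin D1, Ccnd1 (0.31). Timp1 was closest to the kinase Src (0.12), the asparagine synthetase Asns (0.24) and the telomere-binding protein Terf1 (0.26). Col1a1 was closest to the lectin Clec10a (0.088), the glutathione transferase Gstt1 (0.091) and Rabep2 (0.10). Lamb2 had no neighbour nearer than the acute-phase protein Orm1 (0.33), followed by RT1-CE1 (0.33) and Rpl17-ps16 (0.34). These are 4 values per gene, from arrays that may share their pools and that differ in dye orientation.

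Other genes of the same pathways were read from lists. Of 135 listed genes of growth factor signalling, matrix proteins, matrix synthesis, matrix breakdown and matrix receptors, 27 were measured and 6 were called, 4 higher and 2 lower, against 28.6% of all features. Their median was -0.018. None of 6 growth factor signalling genes was called, among them Tgfb3, Ltbp1, Smad2 and Ccn2 (connective tissue growth factor), and their means ran from -0.074 to 0.21. Of these 6, 2 (Smad2 and Ccn2) had an unadjusted p under 0.05, a threshold that at least 28.6% of all features passed.

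Among 5 other matrix proteins, the plasma adhesion protein vitronectin, Vtn, fell (-0.47 ± 0.09, SE, 4 arrays, limma adjusted p = 0.00147), while fibronectin (Fn1), Mgp, Spp1 and Ecm1 did not pass. Vtn was above 0 on both arrays with ligation in Cy5, at 0.53 and 0.16, and below 0 on both with ligation in Cy3, at -1.50 and -1.09. The 1 measured gene of collagen synthesis, P4hb, a subunit of prolyl hydroxylase, did not pass (-0.16).

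Of 7 other genes of matrix breakdown, 2 rose and 1 fell, against 28.6% of all features called. The tissue plasminogen activator Plat was at 0.33 ± 0.07 (SE, 4 arrays, adjusted p = 0.00434), the lysosomal cathepsin Ctsl at 0.37 ± 0.11 (adjusted p = 0.0171), and the protease inhibitor A2m at -0.28 ± 0.08 (adjusted p = 0.0197). Ctsl gave 1.38, -0.61, 0.81 and -0.089 on arrays 1 to 4, so that its sign followed the dye. The urokinase Plau, Adam15, Ctsb and Ctss did not pass. Calls were lost without array 1 or array 4 for Ctsl (0.23, adjusted p = 0.19, and 0.25, adjusted p = 0.126), and without array 3 or array 4 for A2m (-0.24, adjusted p = 0.11, and -0.20, adjusted p = 0.263). Plat without array 4 was at 0.29 (adjusted p = 0.052).

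Of 8 matrix receptors and their partners, 2 rose, against 12% of all features. The integrin-linked kinase Ilk was at 0.50 ± 0.08 (SE, 4 arrays, adjusted p = 0.000527). Its arrays 1 to 4 gave 1.36, -0.38, 1.08 and -0.042, so that its sign followed the dye as for Lamb2. The integrin-associated protein Cd47 was at 0.27 ± 0.10 (adjusted p = 0.0498), which did not pass at 0.13 without array 1 (adjusted p = 0.335) or at 0.21 without array 4 (adjusted p = 0.223). Cd47 gave 1.27, -0.56, 0.68 and -0.29 on arrays 1 to 4, and its sign also followed the dye. The integrins Itga1, Itga7, Itgb1 and Itgb5, the collagen receptor Ddr1 and the kinase Ptk2 did not pass.

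Markers of the cells that could carry these transcripts were sparse on the array. Of 15 listed markers of stellate cells and myofibroblasts, 3 were measured (Vim, Pdgfra and Ngfr), and their means ran from -0.18 to 0.064. None was called by limma, and 0 had an unadjusted p under 0.05, against at least 28.6% of all features. The list's other genes, Acta2 and Des among them, were not analysed here. Of 10 listed cholangiocyte markers 3 were measured and 1, Anxa5, was higher, while Spp1 and Ggt1 did not pass. Whether Anxa5 is particular to cholangiocytes was not checked here. Of 11 endothelial markers 4 were measured and 2 (Kdr and Ece1) were lower, and of 18 leukocyte and Kupffer cell markers 3 were measured and 2 (Cd53 and Ccl5) were lower. All 7 measured hepatocyte markers were called, 5 higher and 2 lower. Of the higher ones, Ttr, Apoa1, Tf and Fgg were above 0 on both arrays with ligation in Cy5. They were below 0 on both arrays with ligation in Cy3. Serpina1 was above 0 on all 4 arrays, and the lower genes, Cyp2e1 and Cyp7a1, were below 0 on all 4. Of all features, 12% were called higher and 16.6% lower. Their medians were -0.0012 for stellate cells, 0.14 for cholangiocytes, -0.18 for endothelium, -0.27 for leukocytes and 0.26 for hepatocytes. The part of cell composition in the values of the collagens, Timp1 and Pdgfa was not tested.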

How the data were processed

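The authors deposited 1 log ratio per probe and array, taken here as log2 of ligation over sham. The base and the direction are not stated. The labels list the ligation RNA as the second channel, which makes this direction likely, and results under the other reading are given. Arrays of equal dye orientation correlated at r = 0.93 and 0.94 across probes, and arrays of opposite orientation at -0.45 to -0.28, and at -0.87 to -0.82 over the 288 spots at positions unnamed in all 16 print blocks. Those spots were taken as control spots and left out of the tests. No source used here describes scanning, background correction or normalization. If the values were natural logarithms, Pdgfa would be 1.73-fold and Timp1 1.42-fold higher.

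Each array was centred on its median (-1.26, 0.43, -0.96 and 0.26 for arrays 1 to 4). Probes with 1 gene symbol were averaged per gene, giving 958 genes and 1174 features. Symbols came from the platform annotation (1432 probes with 1 symbol, 19 with several, 485 unnamed), and the 12 genes studied matched RefSeq by gene number. A fit with a ligation term and a dye term was made with limma 3.58.1 in R 4.3.3 (2 residual and 10.4 prior degrees of freedom, prior SD 0.16) with Benjamini-Hochberg adjustment. The fit was also run on data simulated from the same model with equal noise in all features, which checks the code and not the calls. The number of arrays limits the precision.

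The genes, lists and settings were chosen with earlier results of these data known. Every gene matched is named, and called genes of the other lists are named with mean and SE. Pdgfra, array values of Vtn, Ilk, Ctsl and Cd47, and the signs of the hepatocyte markers were added after their values were seen. For each of Pdgfa, Timp1, Col1a1 and Lamb2 the 3 nearest genes are named. Alternatives were other centring and normalization, the other direction, a robust prior, no dye term, other probe sets and summaries, and leaving out each array.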

Additional observations from a re-analysis of the deposited data

Results flagged for a closer look

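Among 47 genes and probes checked, 3 had 1 array far from the other 3 (a gap over 0.829 of the range, which chance gives in about 1 in 20 groups). The connective tissue growth factor Ccn2 was at 0.31 on array 3, with the other arrays between 0.15 and 0.16. The urokinase Plau was at 0.083 on array 2, with the others between -0.059 and -0.036. The neurotrophin receptor Ngfr, a stellate cell marker, was at 0.63 on array 4, with the others between -0.50 and -0.37. None of the 3 was called.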

How the results depend on the processing

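Without centring, 985 features were called (20 higher, 965 lower), with 1361 probes and 11 of the 15 member probes called, 355 features of 1 sign and 20 of the 27 listed genes called, and Lamb2 (-0.020), Timp1 (-0.034), Mmp14 (-0.15), Mmp13 (-0.35), Cd47 (-0.11), Ctsl (-0.0067), Plat (-0.051) and Mmp12 probe 1013 (-0.33) changed sign. Then 0 member genes were called higher and 8 lower by limma, with 0 higher at an unadjusted p under 0.05. Read as Cy5 over Cy3, 925 features (533 higher, 392 lower), 1346 probes, 10 member probes and 19 listed genes were called and 796 features had 1 sign. The sign changed for Pdgfa (-0.24), Timp1 (-0.00049), Mmp13 (-0.49), Timp2 (0.11), Col2a1 (0.25), Col6a1 (0.059), A2m (0.021), Plat (-0.29), Vtn (0.82), Mmp12 probes 56 (0.41) and 1013 (-0.51), Col1a1 probe 1306 (0.28) and Col6a1 probe 1903 (0.12). Without a dye term, whose variance then enters the error, limma called 0 of 1174 features (0 higher, 0 lower) and 1 of 1648 probes, with 0 member genes, 0 member probes and 0 listed genes. At an unadjusted p under 0.05 there were 74 features, 104 probes, 1 member gene, 1 member probe and 0 listed genes. With control spots kept, 239 features were higher. Print-block centring put Pdgfra at 0.022 and quantile normalization put Mmp13 at -0.0015. Leaving out single arrays gave 253 to 308 features called (96 to 144 higher, 144 to 198 lower), 357 to 491 probes, 183 to 236 features of 1 sign, 3 to 6 member genes (3 without array 1 or array 4), 3 to 7 member probes and 3 to 6 listed genes. Mmp13 (-0.063) and Col1a1 probe 1183 (0.0072) changed sign without array 3, and Pdgfra (-0.023 to 0.021) without array 4. Every array carried a ligation pool and a sham pool, so that each log ratio is already a pair and no further pairing was made. The cause of these shifts was not tested where no construction is given. Signal over background is unknown and limits what the probes without a call can show.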
